A study of Rattus norvegicus with 6 samples.

Results

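The genes described here are the serpins, a family of secreted and intracellular proteins most of which inhibit serine proteases, as they were measured in rat soft tissue around a dental implant and in healed oral mucosa. They were all genes whose single symbol in the array annotation began with Serpin, apart from Serping1 and Serpinh1, which the selection left out. A probe set is a group of array features designed for 1 transcript, and where a gene had several, the one brightest on average over the 6 arrays stood for it. This gave 31 genes of 14217 with a named probe set, measured by 35 probe sets, and for all 31 RefSeq's rat annotation, GRCr8, gives the same symbol under the same gene number. They fell into 7 clades, the branches of the family, given by the letter after Serpin: 12 genes of clade A, 11 of B, 2 each of E, F and I, and 1 each of C and D.

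The peri-implant group held 3 samples from male Sprague-Dawley rats, an outbred strain, that had lost both upper first molars when 4 weeks old, with a titanium alloy implant set into the left socket. The comparison group held 3 samples of mucosa from the right side, where the socket had healed with no implant. All samples were taken 4 weeks after surgery, so the rats had the extraction in common, and implant and side of the mouth cannot be told apart. Whether each sample of a group came from its own rat, and whether the groups shared rats, is not stated in the labels. The p-values therefore rest on the spread among these 3 samples a group, part or all of which may be technical.

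A serpin traps a protease with an exposed loop that the enzyme cuts as if it were a substrate. The cut serpin then changes shape, and the protease is held in an inactive complex. Clade A holds secreted plasma inhibitors such as α1-antitrypsin. Clade B holds mostly intracellular serpins, several of them made by stratified epithelium and leukocytes, which protect cells from their own or neighbouring cells' proteases. Clades C, D, E and F act largely in clotting, in fibrinolysis and in matrix, and clade I contains neuroserpin. Some members are not inhibitors.

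The serpins did not move in 1 direction. The largest difference was that of Serpinb3, whose human counterpart is the squamous cell carcinoma antigen, an inhibitor of cysteine cathepsins. It was 18.1-fold higher in peri-implant tissue. The clade B genes Serpinb12, Serpinb10 and Serpinb1a rose as well, by 2.12-fold, 1.85-fold and 1.25-fold. The clade B genes Serpinb2, Serpinb6a and Serpinb7 fell, as did Serpina12 (vaspin) and Serpine2 (protease nexin-1), between 1.53-fold and 2.45-fold.

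Signals are on the log2 scale, as are all differences, which are peri-implant minus mucosa. A gene was tested when the mean of its 6 arrays was above 5.68, and it was called at an adjusted p under 0.05 in limma, a linear model fitted to all 18625 probe sets above that signal. Of the 31 serpin genes, 16 were tested. Of these, 4 were called higher and 5 lower, and 7 did not pass. Among all 10585 genes tested, 26.1% were called, 15.2% higher and 11.0% lower. The called serpins all had a mean signal above 9, as did 11 of the 16. Of all genes above 9, 31.9% were called. A called difference of more than 2-fold was seen for 4 of the 16, Serpinb3, Serpina12, Serpinb12 and Serpinb7, and for 7.51% of all genes. The groups did not overlap for 11 of the 16 serpins, and for 41.9% of all genes. The median difference of the tested serpins was 0.13, or -0.02 without mucosal array 1, and that of all genes 0.03. A gene whose mean is raised by 1 group alone passes the filter more easily, so these counts describe the tested genes and not the family.

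**Figure D1:**
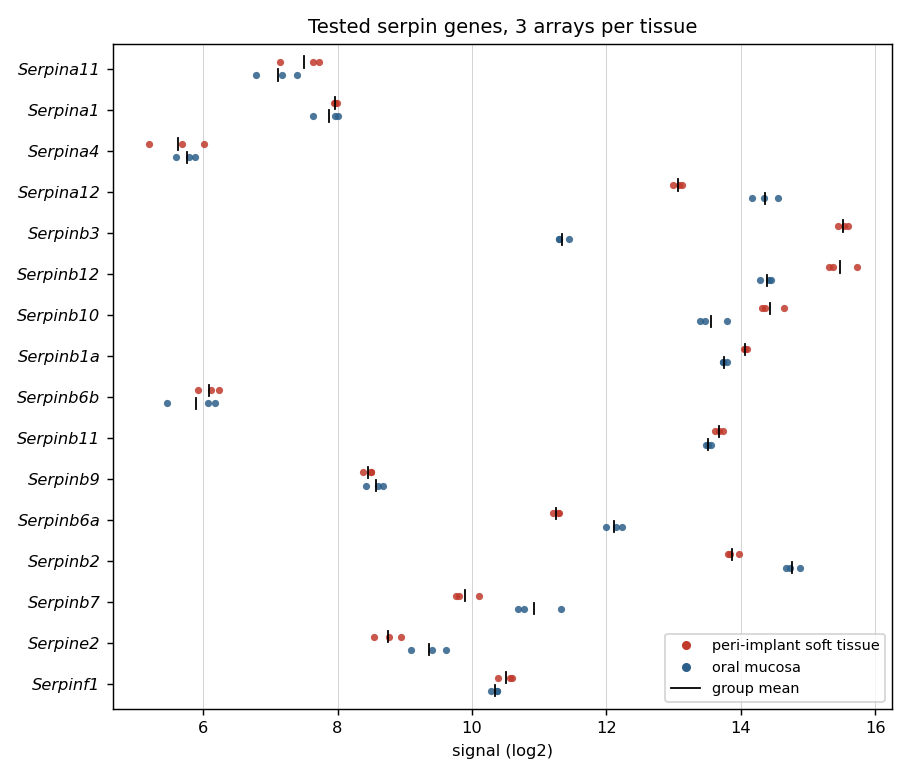
Signal (log2) of the 16 tested serpin genes on each of the 3 peri-implant and 3 mucosal arrays, with the group mean as a black bar. For Serpinb3 all peri-implant arrays lie at 15.44 or above and all mucosal arrays at 11.44 or below.

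Clade B had 10 tested genes of 11, and 7 of the 10 were called, 4 higher and 3 lower. Most of these tested genes had a mean signal above 9, while in clade A only Serpina12 did. Of all tested genes 26.1% were called, and of those above 9, 31.9%. The clade B median difference was 0.17, or 0.06 without mucosal array 1, and the clade B differences ran from -1.03 to 4.18. Clade A had 4 tested genes of 12, with 1 called lower and a range of -1.29 to 0.38. Its median of -0.01 has no settled direction: it was -0.60 with the filter at the 60th percentile, 0.24 with values raised to a dim floor of 5.90 (the 40th percentile of single values) and -0.11 to 0.16 without single arrays, the 0.16 without mucosal array 3. Of the 16 tested serpins, 13 stayed tested at the 60th percentile, 14 with raised values and 15 without mucosal array 3. These clade A medians are therefore not over the same genes. Clade E had 1 tested gene, which was called lower, and clade F had 1, which was not called. No gene of clades C, D or I was tested. With so few tested genes outside clade B, the clades are described by these counts and no difference between them was tested.

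**Figure D2:**
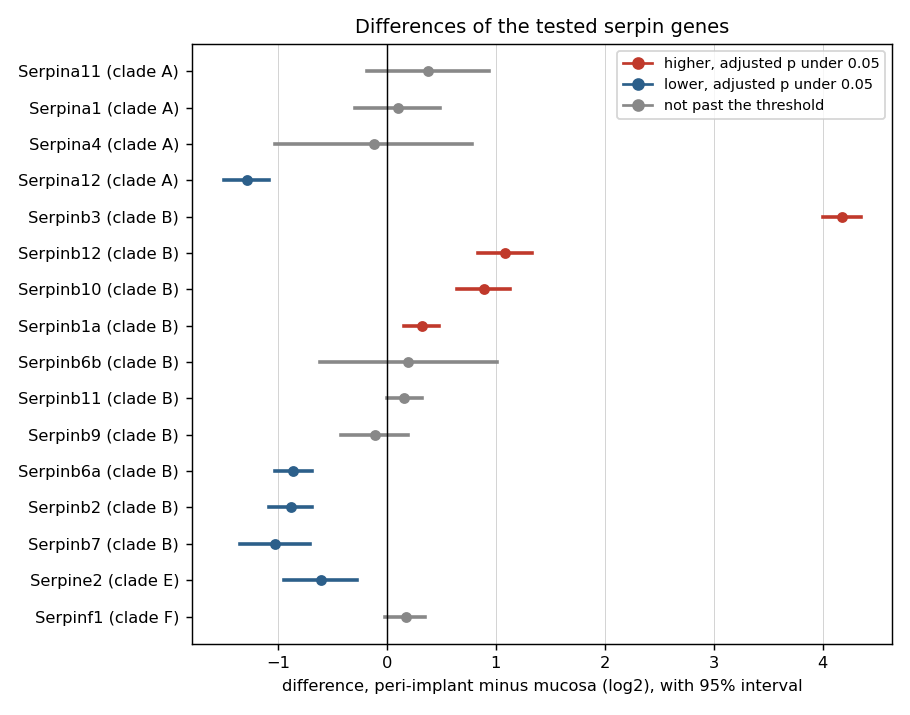
Difference between the tissues (log2, peri-implant minus mucosa) with its 95% interval for each of the 16 tested serpin genes. Colour marks the 4 genes called higher, the 5 called lower and the 7 not past the threshold. Serpinb3 at 4.18 stands apart from the other 15, which lie between -1.29 and 1.08.

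Serpinb3 read 15.53, 15.44 and 15.60 on the peri-implant arrays and 11.44, 11.30 and 11.30 on the mucosal arrays. Every peri-implant array was thus about 4 log2 units above every mucosal one, and the spread within each group was small. The means were 15.52 ± 0.08 and 11.35 ± 0.08 (SD, n = 3 each), a difference of 4.18 (SE 0.08, limma adjusted p = 1.89e-12). It ranked 14 from the largest rise among the 10585 genes. In peri-implant tissue its signal came within 0.71 of the highest signal of an array, and saturation there was not tested. The rat genome annotation lists a closely named gene, Serpinb3a, in the same block, and whether the probe set also binds its transcript was not tested.

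Serpinb12, an epithelial inhibitor of trypsin-like proteases, read 15.37, 15.32 and 15.73 in peri-implant tissue and 14.29, 14.42 and 14.45 in mucosa. The lowest peri-implant array lay above the highest mucosal one. The difference was 1.08 (SE 0.11, limma adjusted p = 1.47e-05). Its peri-implant signal came within 0.82 of the highest of an array, and saturation was again not tested.

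Serpinb10, bomapin, is known from myeloid blood cells. It read 14.32, 14.36 and 14.64 against 13.47, 13.40 and 13.79, with all peri-implant arrays above all mucosal ones, and it rose by 0.89 (SE 0.11, limma adjusted p = 8.22e-05).

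Serpinb1a, an inhibitor of the neutrophil proteases elastase, cathepsin G and proteinase 3, read 14.06, 14.05 and 14.10 against 13.73, 13.79 and 13.73. The groups were separate and the rise was small, 0.32 (SE 0.07, limma adjusted p = 0.00734). The second probe set of the gene was also called higher, by 0.34 (SE 0.11, limma adjusted p = 0.0327), although its groups overlapped. With each array centred on its median the difference was 0.30 and the call was lost (limma adjusted p = 0.0695). Leaving out the variance trend also ended it (limma adjusted p = 0.0527). All alternatives gave adjusted p-values from limma between 3.12e-05 and 0.0695.

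The neutrophil marker list, beside which Serpinb1a and Serpinb10 may be read, was higher in 3 of its 4 tested genes and lower in 0. Its summed signal was 16.85 to 17.29 in peri-implant tissue and 14.68 to 14.81 in mucosa. S100a8 and S100a9, which keratinocytes also make, carry that sum, and in peri-implant tissue they came within 0.46 and 0.15 of the highest signal of an array. Of the other tested genes, Csf3r rose by 2.26 and Cxcr2 differed by -0.10 (limma adjusted p = 0.762). Mmp8, not tested, was below the dim floor of 5.90 on every array. The macrophage list was higher in 6 of 7 tested genes and lower in 0, at 14.43 to 14.55 against 13.20 to 13.28, with Cd163 below that floor on every array. Their part in the serpin differences was not tested. Among all tested genes, 15.2% were called higher and 11.0% lower. Serpinb1a and Serpinb10 were also bright in mucosa, at means of 13.75 and 13.55, and which cells made them was not tested. In bulk tissue, fewer cells of a type and less RNA per cell cannot be told apart.

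Serpinb2, plasminogen activator inhibitor type 2, is made by keratinocytes and by activated monocytes and inhibits urokinase and tissue plasminogen activator. It read 13.84, 13.81 and 13.98 in peri-implant tissue and 14.67, 14.88 and 14.73 in mucosa, so all peri-implant arrays were lower. It fell by 0.88 (SE 0.09, limma adjusted p = 1.06e-05).

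Serpinb7, megsin, is a serpin of the upper epidermis whose loss causes an inherited palmoplantar keratosis in humans. It read 9.77, 9.81 and 10.10 against 10.77, 11.32 and 10.68, and fell by 1.03 (SE 0.15, limma adjusted p = 0.000207). The other probe set of Serpinb7 fell by 0.59 (SE 0.13, limma adjusted p = 0.00473), also without overlap of the groups. Unmoderated variances ended the call of the first (limma fit, adjusted p = 0.0676, the highest of its alternatives, which start at 1.58e-05).

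Serpinb6a, an intracellular inhibitor of cathepsin G and trypsin-like enzymes, read 11.20, 11.29 and 11.28 against 12.23, 12.14 and 11.99. All peri-implant arrays were lower, and it fell by 0.86 (SE 0.08, limma adjusted p = 3.66e-06).

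The remaining tested genes of clade B did not pass. Serpinb11, an epithelial serpin, read 13.67, 13.62 and 13.73 against 13.49, 13.55 and 13.51. These groups did not overlap, and the difference was 0.16 (SE 0.07, limma adjusted p = 0.155). Under quantile normalisation, which gives all arrays 1 distribution of signals, the difference was 0.25 and it was called (limma adjusted p = 0.00337, the lowest of its alternatives, which reach 0.436). Serpinb9, the granzyme B inhibitor that protects cytotoxic lymphocytes and antigen-presenting cells, differed by -0.11 with a 95% interval of -0.42 to 0.19. Its dimmer probe set differed by -0.61 with no overlap of the groups and narrowly missed the threshold (limma adjusted p = 0.0565). Serpinb6b, at 6.09 against 5.90, differed by 0.19 with an interval of -0.62 to 1.01.

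The keratinocyte list, which holds the defining genes of the epithelium that makes many clade B serpins, had 2 of its 8 genes higher and 2 lower. Krt1 rose by 1.14 and Cdh1 by 0.34, while Krt5 fell by 0.50 and Pkp1 by 0.39. Without the filter Pkp1 was not called (limma adjusted p = 0.0643). The summed signal of the list was 18.02 to 18.44 in peri-implant tissue and 18.15 to 18.63 in mucosa. The brightest genes in that sum, by the mean of all arrays, were Krt10, Dsp, Krt14 and Krt5. Their signals came within 0.12, 0.43, 0.59 and 1.01 of the highest of an array in peri-implant tissue. In mucosa they came within 0, 0.27, 0.54 and 0.53. Saturation was not tested, so the sums do not show that the tissues held alike amounts. None of the keratinocyte genes was below the dim floor on every array. For comparison, 26.1% of all tested genes were called, and 31.9% of those with a mean signal above 9.

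In the GRCr8 annotation, the 10 clade B genes around Serpinb3 lie next to each other on chromosome 13 with 1 other protein-coding gene among them. Of the 10, 6 were tested, and the others had no probe set with their single symbol. Along the chromosome the tested order was Serpinb12, Serpinb3, Serpinb11, Serpinb7, Serpinb2 and Serpinb10. The adjacent genes Serpinb7 and Serpinb2 both fell, by 1.03 and 0.88, while Serpinb10, the gene next to Serpinb2, rose by 0.89. Of the 6, 3 rose, 2 fell and 1 was not called. A second clade B block runs from Serpinb6a to Serpinb1a and holds 9 serpin genes. Of its 4 tested genes, 1 rose, 1 fell and 2 were not called. The clade A block holds 18 serpin genes, and Serpina12 was the 1 gene called among its 4 tested. These counts stand beside 26.1% called of all tested genes, and 31.9% of those with a mean signal above 9. All 6 tested genes around Serpinb3 had a mean above 9.

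**Figure D3:**
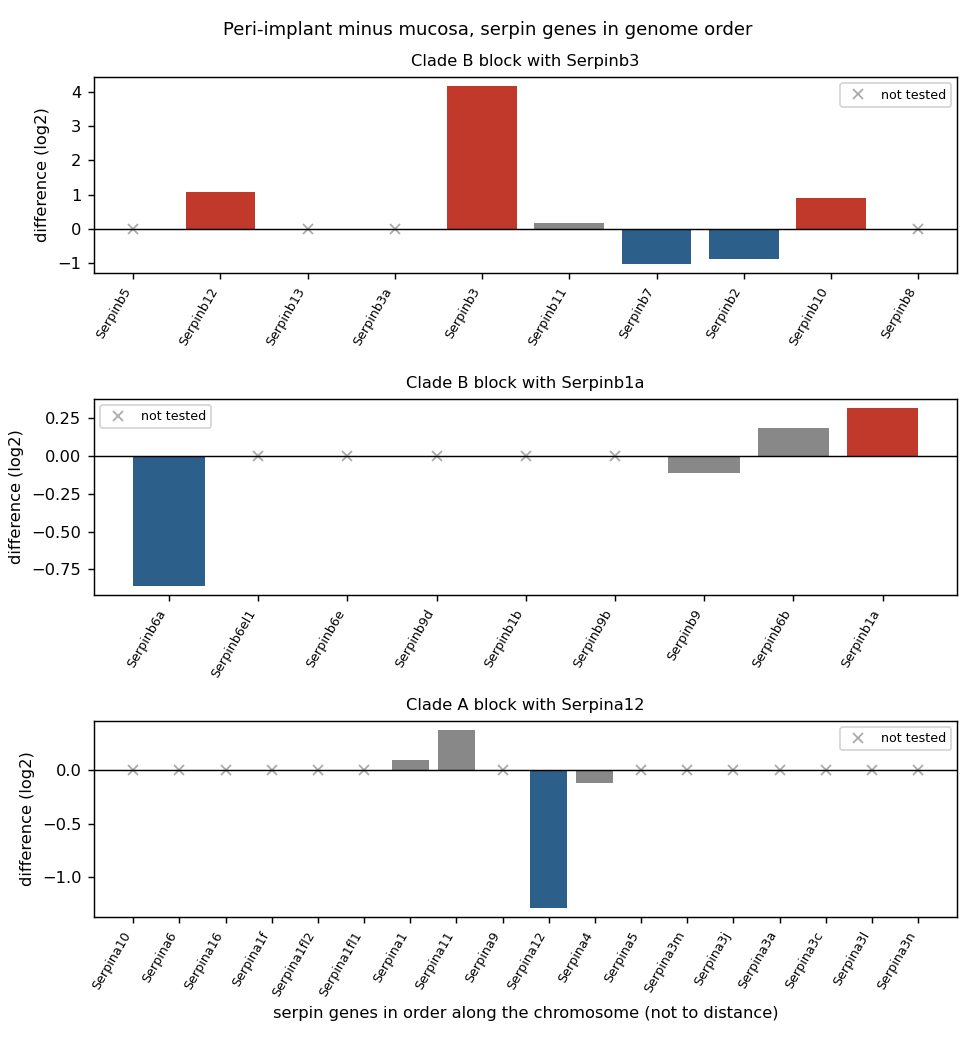
Difference between the tissues (log2, peri-implant minus mucosa) of serpin genes in their order along the chromosome, in the 2 clade B blocks and the clade A block; distances are not to scale and each panel has its own vertical axis. Crosses are genes not tested, grey bars tested genes not past the threshold. A cross stands either for a signal under the filter or for a gene without a probe set of its single symbol. In the upper panel Serpinb3 at 4.18 is the highest bar, and Serpinb7 and Serpinb2 are below 0.

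The sequences before the starts of 4 of these neighbours are shown because the genes lie in 1 block and went different ways: Serpinb3 and Serpinb10 rose, Serpinb7 and Serpinb2 fell. Each is the 250 bases up to the gene's start in RefSeq, build GRCr8, on the strand of the gene. Capitals mark TGANTCA, the core of the site bound by AP-1 factors, and TATAAA, the TATA box, searched on both strands; the matches do not overlap each other. Serpinb3 lies at chr13:23795299-23795548 on the minus strand, Serpinb7 at chr13:23910056-23910305, Serpinb2 at chr13:24055771-24056020 and Serpinb10 at chr13:24067803-24068052, these 3 on the plus strand.
Serpinb3: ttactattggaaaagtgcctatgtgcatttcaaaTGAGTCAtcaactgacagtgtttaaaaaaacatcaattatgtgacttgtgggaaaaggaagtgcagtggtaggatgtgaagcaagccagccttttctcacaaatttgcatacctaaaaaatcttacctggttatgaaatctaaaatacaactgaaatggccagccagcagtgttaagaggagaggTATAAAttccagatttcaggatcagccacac
Serpinb7: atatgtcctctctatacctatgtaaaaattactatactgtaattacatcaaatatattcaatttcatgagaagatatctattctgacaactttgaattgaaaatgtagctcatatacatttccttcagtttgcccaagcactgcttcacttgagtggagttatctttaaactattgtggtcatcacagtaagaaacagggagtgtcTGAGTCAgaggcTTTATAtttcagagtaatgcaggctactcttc
Serpinb2: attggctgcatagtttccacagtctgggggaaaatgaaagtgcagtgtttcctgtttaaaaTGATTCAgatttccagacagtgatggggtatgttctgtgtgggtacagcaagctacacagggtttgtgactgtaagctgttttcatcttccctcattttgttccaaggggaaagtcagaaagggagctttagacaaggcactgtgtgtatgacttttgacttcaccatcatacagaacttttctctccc
Serpinb10: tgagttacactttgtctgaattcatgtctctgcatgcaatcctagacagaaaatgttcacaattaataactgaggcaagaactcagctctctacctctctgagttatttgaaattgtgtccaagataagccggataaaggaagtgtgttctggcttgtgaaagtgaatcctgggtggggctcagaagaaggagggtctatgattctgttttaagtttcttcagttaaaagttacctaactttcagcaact

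TGANTCA was found in 3 of the 15 tested serpins that have a promoter entry: in Serpinb3, which rose, and in Serpinb7 and Serpinb2, which fell. It begins 216, 44 and 189 bases before their starts. Of all 33469 promoters searched over the same length, 6.34% hold it. TATAAA was found in Serpinb3, 31 bases before the start, in Serpinb7 on the other strand and in Serpinb1a, and 12.9% of all promoters hold it. TTCNNNGAA, the core bound by STAT factors, was found in Serpina11 alone of the 15, against 7.67% of all promoters. The NF-kB motif was found in 0 of the 15, against 3.54%. With at most 3 matched genes for a motif, the search cannot show whether matches go with a direction of change. The matches describe these letters, not binding.

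Serpina12, vaspin, is a secreted inhibitor of kallikrein 7 that is made in adipose tissue and epidermis. It read 12.99, 13.08 and 13.13 in peri-implant tissue and 14.17, 14.35 and 14.55 in mucosa. All peri-implant arrays were lower by about 1 unit or more, and it fell by 1.29 (SE 0.10, limma adjusted p = 6.79e-07), the largest fall among the tested serpins. Serpina1, which encodes α1-antitrypsin, the main plasma inhibitor of neutrophil elastase, read 7.97, 7.95 and 7.99 against 7.64, 7.97 and 8.01, with overlapping groups. Its difference was 0.10 with a 95% interval of -0.29 to 0.49. Serpina11 read 7.14, 7.64 and 7.73 against 7.40, 6.78 and 7.18, a difference of 0.38 with an interval of -0.18 to 0.94. Serpina4, kallistatin, was dim in both tissues at 5.63 and 5.76, just above the filter.

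Serpine2, a matrix-bound inhibitor of thrombin, urokinase and plasmin made by fibroblasts, read 8.54, 8.77 and 8.95 against 9.40, 9.09 and 9.61. All peri-implant arrays were lower, and it fell by 0.61 (SE 0.15, limma adjusted p = 0.0109). Serpine2 no longer passed when the variance trend was left out (limma adjusted p = 0.0685) or variances were unmoderated (limma fit, adjusted p = 0.137). The lowest adjusted p of its alternatives was 0.00269. The fibroblast list was lower in 6 of its 7 genes and higher in 1, with a summed signal of 15.26 to 15.32 against 15.95 to 16.09, and no gene of it below the dim floor on every array. Its part in the fall of Serpine2 was not tested. The shares over all tested genes were 11.0% lower and 15.2% higher. Serpinf1, pigment epithelium-derived factor, a serpin without inhibitory activity that fibroblasts also make, read 10.39, 10.59 and 10.56 against 10.38, 10.38 and 10.29. The groups did not overlap, and the difference of 0.17 had a 95% interval of -0.02 to 0.35.

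The 15 untested genes had means from 1.74 to 5.47, and 13 of them were dim in both tissues. They were Serpina3c, Serpina3l, Serpina3m and Serpina3n of the antichymotrypsin group, the hormone carriers Serpina6 and Serpina7, Serpina5 (protein C inhibitor), Serpina10 (protein Z-dependent inhibitor), Serpinb9b, Serpinc1 (antithrombin), Serpind1 (heparin cofactor II), Serpine3, Serpinf2 (α2-antiplasmin), Serpini1 (neuroserpin) and Serpini2. Many of these are plasma proteins made by the liver. In these genes single arrays ran from 0 to 7.06, and the groups did not overlap for 4: Serpina3n, Serpinb9b, Serpind1 and Serpini2. Serpinb9b and Serpini2 were below the dim floor on every array, and with values raised to that floor their differences were 0. How often groups separate among all untested genes was not counted, so the 4 have no background to be read against.

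Serpina3n, an acute-phase inhibitor of cathepsin G, read 6.03, 6.31 and 6.59 in peri-implant tissue and 5.01, 3.67 and 1.57 in mucosa. Fitted without the filter it differed by 2.89 (SE 0.89) and just missed the threshold (limma adjusted p = 0.0504). With values raised to the dim floor of 5.90 the difference was 0.41. Serpind1 went the other way, at 5.66, 5.07 and 3.27 against 6.11, 7.06 and 5.66, and without the filter its difference was -1.61 (SE 0.71, limma adjusted p = 0.193). No untested serpin was called without the filter.

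**Figure D4:**
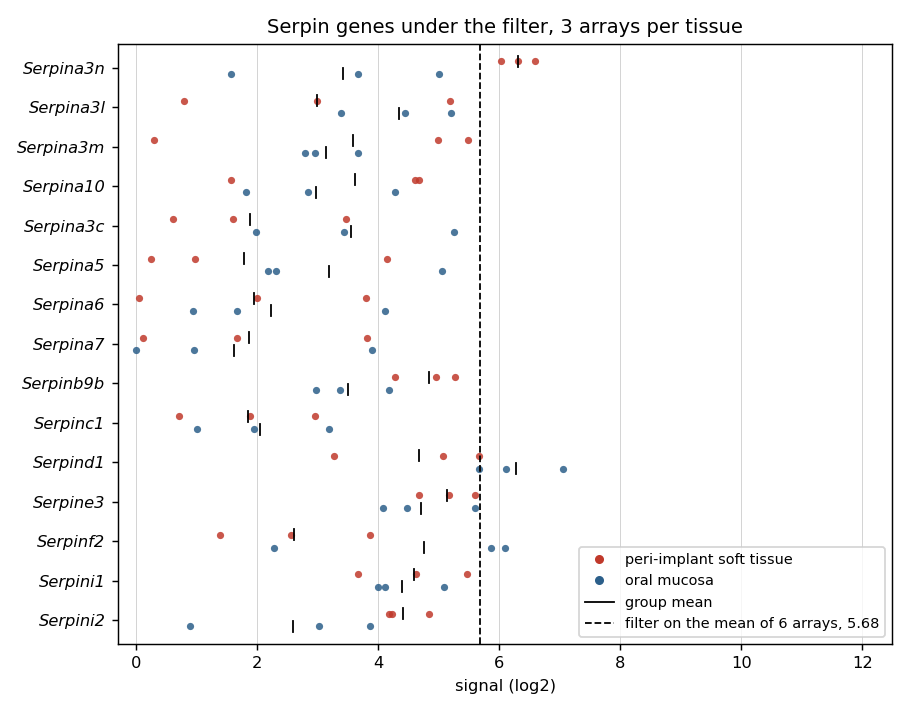
Signal (log2) of the 15 serpin genes under the filter on each of the 3 peri-implant and 3 mucosal arrays, with the group mean as a black bar and the filter at 5.68 as a dashed line. Serpina3n is above 6 on all peri-implant arrays and at 5.01 or lower on all mucosal arrays.

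Proteases of the kinds that serpins inhibit, their receptors and cofactors, other inhibitors and clearance receptors were taken from 8 lists with 103 measured genes. Not every listed gene is a known target of a serpin. Of the 60 tested, 16 were called higher, 14 lower and 30 did not pass, with a median difference of 0.07 against 0.03 over all genes. As a share, the called genes of these lists are to be read beside the 26.1% of all genes.

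Among genes of plasminogen activation, 1 of 4 tested was higher and 1 lower. Plat, tissue plasminogen activator, a target of Serpinb2 and Serpine2, read 12.85, 13.06 and 12.95 in peri-implant tissue and 10.53, 10.63 and 10.40 in mucosa. It rose by 2.43 (SE 0.08, limma adjusted p = 3.04e-10) on the same arrays on which Serpinb2 and Serpine2 were lower. Plau, urokinase, the other target of Serpinb2, differed by -0.09 (limma adjusted p = 0.483), and its receptor Plaur by 0.14 (limma adjusted p = 0.730). Plgrkt, a plasminogen receptor, fell by 0.32 (limma adjusted p = 0.0140). That call was lost in 5 alternatives, among them without peri-implant array 1 or 2 (limma adjusted p = 0.0640 and 0.0520), with a range of 0.00837 to 0.0862.

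Cysteine cathepsins and legumain are lysosomal enzymes, some of which Serpinb3-type serpins inhibit across enzyme classes. They were higher in 5 of 10 tested genes and lower in 1, with a median of 0.38. The lower gene was Ctsk, at -0.51 (limma adjusted p = 0.00138). Ctsl, at 0.15, was not called (limma adjusted p = 0.156), though it was under quantile normalisation (limma adjusted p = 0.00343). Ctss, the cathepsin of antigen-presenting cells, read 11.04, 11.06 and 11.14 against 9.06, 9.19 and 9.34. It rose by 1.89, and Ctsz by 1.78 and Ctsh by 0.43. Lgmn, legumain, rose by 0.47, but with the mean of its probe sets the difference was -0.72 and was not called (limma adjusted p = 0.411, the highest of its alternatives, which start at 0.000209).

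The list of serine proteases chosen for epithelium was higher in 3 of 10 tested genes and lower in 3. Prss23 fell by 4.00 and Htra1 by 1.53. Both are also made outside epithelium, and which cells made them here was not tested. Klk6, a kallikrein of skin, rose by 1.58 and Prss22 by 1.55. Clotting genes were higher in 1 of 8 tested and lower in 3. Tissue factor, F3, fell by 0.85, and the thrombin receptor F2r by 0.64. Pros1, protein S, fell by 0.55, and without peri-implant array 1 it no longer passed (limma adjusted p = 0.0526, where its alternatives ran from 0.00673 to 0.117). Thbd, thrombomodulin, rose by 1.10, and its call was lost with the mean of its probe sets, at 0.38 (limma adjusted p = 0.408, the highest over its alternatives, the lowest being 2.39e-07).

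The granule proteases of neutrophils and mast cells had 1 tested gene of 10 measured, which was not called. The mast cell marker list likewise had 1 tested gene of 8. Elane and Ctsg, targets of Serpinb1a and Serpinb6a, were not analysed here. Gzmb, the target of Serpinb9, was dim in both tissues, at 4.61, 3.32 and 4.37 against 4.76, 4.69 and 4.23. The T and NK cell marker list had 3 tested genes of 8 measured, and all 3 were called higher. Of these, Cd3e was dim in mucosa. The summed signal of the list was 10.17 to 10.25 in peri-implant tissue and 8.01 to 8.09 in mucosa. Its relation to Serpinb9 was not tested. Over all tested genes, 15.2% were called higher.

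Inhibitors outside the family also moved both ways, with 6 of 21 tested genes higher, 4 lower and a median of 0.06. Tfpi, which blocks tissue factor, read 10.84, 10.90 and 10.87 against 8.69, 8.47 and 8.41 and rose by 2.34 (limma adjusted p = 3.31e-09). Wfdc2, a secreted inhibitor of mucosal glands, rose by 2.26 and Cst7, a leukocyte cystatin, by 1.47. Cstb, cystatin B, fell by 0.41. Of 5 receptors that take up or help to take up serpin and protease complexes, 2 were lower and 0 higher. Vldlr fell by 1.03 and Lrp1 by 0.49, and the call of Lrp1 was lost with the mean of its probe sets, at -0.18 (limma adjusted p = 0.859, the highest over its alternatives, the lowest being 0.00297).

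**Figure D5:**
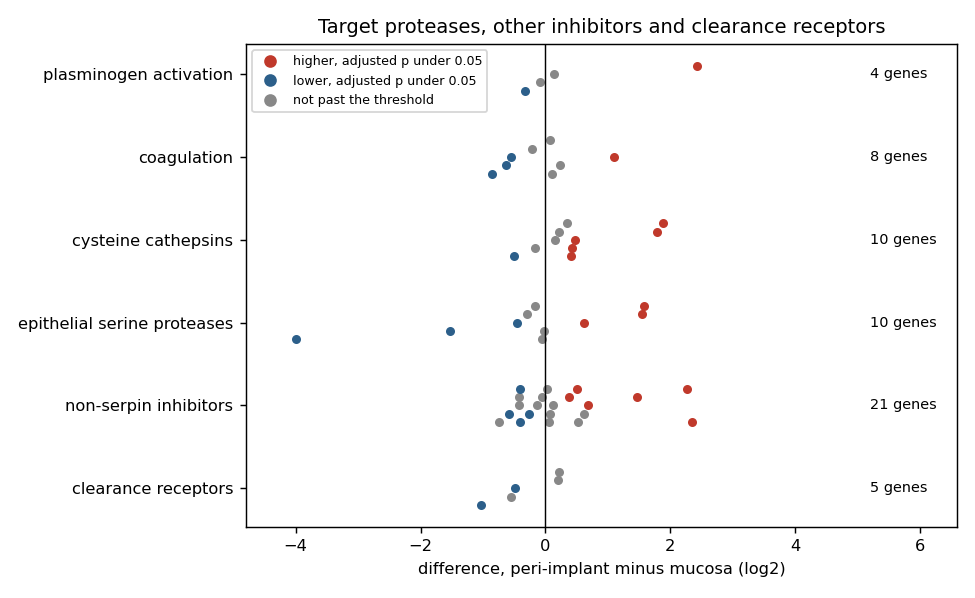
Difference between the tissues (log2, peri-implant minus mucosa) of each tested gene in 6 of the 8 lists; the lists of granule proteases and of granzymes, with 1 tested gene each, are not drawn. Each point is a gene, coloured by its call. Calls in both directions occur in each drawn list but the clearance receptors, in which 2 of 5 genes were called lower and 0 higher.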

How the data were processed

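RNA from 6 samples was amplified with an Affymetrix 3' expression kit and hybridised to 1 array each, per the labels' protocols. The authors deposited log2 signals, scaled per array: the linear mean, after the top and bottom 2% were trimmed, was 500.2 on all 6, as read from the values. For software, background method and array build, the sources used here give nothing. Median signal was 6.62 to 6.78, and the number of arrays limits the precision.

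The values of 31042 probe sets, without 57 controls, were used as deposited. Probe sets above the 40th percentile of mean signal were tested with limma 3.58.1 in R 4.3.3 (lmFit, eBayes with a variance trend, two-sided, Benjamini-Hochberg over all 18625). The floor of 5.90, below which a gene is called dim, is the 40th percentile of single values. Summed signals of marker lists are log2 of the summed linear signals. Symbols came from the platform annotation, and promoters from RefSeq GRCr8. The members and lists were chosen with earlier results of these data known. All serpins are named. From each list up to 4 called genes of smallest p were named, plus 6 set genes, and Ctsk and Ctsl were added. After inspection, 3 synonyms that named another gene were dropped. The split at a signal of 9 was chosen after seeing the values. The fit was tested on simulated data. Alternatives covered filter, normalisation, variance model, dim values, probe set choice, replicate block and each array left out.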

Additional observations from a re-analysis of the deposited data

How the results depend on the processing

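The counts of 4 serpin genes called higher and 5 lower were the same without each of the 6 arrays in turn (4 to 4 and 5 to 5). Over the other alternatives there were 3 to 5 higher and 3 to 5 lower, the 3 lower with unmoderated variances. No serpin called as reported changed sign. The replicate block gave 9 called serpins and changed none of their calls. Same-numbered samples did not deviate together (correlations of 0.013, -0.079 and 0.027), which cannot show whether the groups shared rats. The labels do not pair the numbers, so they were not taken as pairs. The median difference of the tested serpins was -0.02 to 0.16 without single arrays, the -0.02 without mucosal array 1. That of clade B was 0.06 to 0.23 and that of clade A -0.11 to 0.16. The clade A median was -0.60 with the filter at the 60th percentile, which left fewer genes. It was 0.24 with values raised to the floor, which also changed the genes tested. Over the protease and inhibitor lists, 9 genes were lower without the variance trend and 8 with unmoderated variances, where 14 were lower as reported; the cause was not tested. The mean of probe sets turned Lgmn to -0.72. Dim signals limit what can be said of the 15 untested serpins.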
